A study of Homo sapiens with 54 samples.

Results

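Castration-resistant (CRPC) LNCaP xenograft tumours were compared with tumours grown with intact androgens (PRE-CX), taking 10 CRPC and 9 PRE-CX tumours by their group label out of 54 tumours in all. LNCaP is a human prostate cancer cell line that grows in response to androgens, and every tumour came from clone FGC of this line, injected under the skin of a separate male NOD-SCID mouse, a strain without a working adaptive immune system that was a few weeks old on arrival. Surgery followed at a tumour size of about 200 mm3. PRE-CX mice had mock surgery, received no drug and were harvested at 1000 mm3. CRPC mice were castrated, received no drug and were harvested once serum prostate-specific antigen (PSA) was back at its pre-castration level or the tumour reached 1000 mm3, and the labels do not say which tumour met which endpoint. A further 8 tumours (POST-CX), harvested 1 week after castration at the lowest serum PSA, served to tell which genes already differed from PRE-CX before relapse. The 12 ENZS and 15 ENZR tumours, castrated and given enzalutamide at 10 mg/kg, entered the fit only to share its estimate of the spread. Their spread thus enters the SE of every comparison, and a fit without them is among the alternatives. All tumours descend from a single clone, so the spread measured here is that between xenografts, not between patients.

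Androgens, testosterone and dihydrotestosterone, switch target genes on or off in prostate epithelium through response elements in their DNA. The best known induced genes are the kallikreins, among them KLK3, which encodes PSA, and castration removes most of the circulating hormone. Relapse after castration is commonly accompanied by a return of PSA, which makes it of interest which androgen-dependent genes return with it. The comparison therefore asked which genes were back at the intact level in CRPC and which ones were still changed.

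The kallikrein genes KLK3 and KLK2 lie next to each other and their proximal promoters are known to hold androgen response elements, while ORM1 is an androgen-induced gene that stayed low in CRPC. The 250 bases upstream of the RefSeq start of these 3 genes (GRCh38.p14, plus strand) are shown 5′ to 3′ to set the promoters of 2 kallikreins beside that of a gene whose CRPC tumours all lay below the intact range, and capitals mark the matches to AGAACA and GAACANNNAGTGCT. These 3 genes and both motifs were chosen after the expression values were seen.
KLK3, chr19:50854665-50854914: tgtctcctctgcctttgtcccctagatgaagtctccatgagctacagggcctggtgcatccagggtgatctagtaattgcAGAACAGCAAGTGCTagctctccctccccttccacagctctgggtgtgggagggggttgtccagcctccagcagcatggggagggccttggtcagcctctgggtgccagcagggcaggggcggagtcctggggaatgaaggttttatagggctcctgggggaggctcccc
KLK2, chr19:50873189-50873438: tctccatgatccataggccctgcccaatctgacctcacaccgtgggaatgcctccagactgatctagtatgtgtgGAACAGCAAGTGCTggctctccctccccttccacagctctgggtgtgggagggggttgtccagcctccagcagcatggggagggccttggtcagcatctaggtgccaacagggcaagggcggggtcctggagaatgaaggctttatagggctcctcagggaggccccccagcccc
ORM1, chr9:114322848-114323097: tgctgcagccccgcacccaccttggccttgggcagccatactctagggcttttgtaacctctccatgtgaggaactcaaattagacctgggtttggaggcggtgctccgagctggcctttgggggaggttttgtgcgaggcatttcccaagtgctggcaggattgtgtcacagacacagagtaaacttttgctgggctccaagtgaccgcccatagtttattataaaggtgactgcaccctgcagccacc
In KLK3, AGAACA, 1 arm of the androgen response element, lay at positions -170 to -165 from the start, and it overlapped GAACANNNAGTGCT, whose letters were read from this window, at -169 to -156. KLK2 held GAACANNNAGTGCT at -175 to -162, and the ORM1 window held neither. Searched on both strands, AGAACA was found in 12.4% of 35116 promoter windows of the same length and in 8 of the 73 windows (39 genes) that the table holds for 56 genes chosen for description, whereas GAACANNNAGTGCT was found in 14 windows (0.0399%) and, among those 39 genes, in KLK2 and KLK3. The full inverted repeat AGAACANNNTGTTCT was found in 1 window (0.00285%) and in none of the 39 genes. The 8 windows with AGAACA were those of KLK3, LOX, PCDH11X, PCNA, PMEPA1, PSLNR, RLN1 and UGT2B15. Of these genes LOX, PMEPA1 and PSLNR stayed low in CRPC, as ORM1 did, and PCDH11X and RLN1 stayed high. A tie between a match and a return of expression was not tested. A match describes letters in a window and not a site, and the lack of one says nothing about binding of a factor.

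Values are TPM, a relative abundance per transcript length, of human genes, rescaled so that each tumour sums to 1000000, and tests were made by limma on log2(TPM + 1) over 17593 genes. Before rescaling, human TPM made up 82.7% to 97.5% of the total in PRE-CX, 77.1% to 96.995% in CRPC and 27.9% to 94.4% in POST-CX, where tumours 91 and 48 were lowest. All 12 luminal prostate markers passed the filter of 1 TPM or more in at least 8 tumours, with a summed level of 5563 to 13100 TPM in PRE-CX and 6053 to 11556 TPM in CRPC. Of 7 basal markers 3 passed this filter, with medians in PRE-CX and CRPC of 13.7 and 18.4 TPM for ITGA6, 6.38 and 8.43 TPM for DST and 1.22 and 3.70 TPM for KRT14, while KRT5 and TP63 had a median of 0 in all 3 groups. Of the fibroblast and muscle markers TAGLN had medians of 8.20 and 7.87 TPM and PDGFRA a median of 0, and of the endothelial markers VWF had medians of 4.90 and 1.07 TPM and CDH5 a median of 0. In bulk tumours, fewer cells expressing a gene and less RNA per cell cannot be told apart.

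A gene was called when its limma adjusted p was under 0.05 and its log2 difference was 1 or more in size. CRPC tumours differed from PRE-CX tumours in 587 genes (3.34% of those tested), of which 383 were higher (2.18%) and 204 lower (1.16%). Just inside the size threshold was ACBD3-AS1 at 1.0008 and just outside it MBNL3 at 0.999. Without the size threshold 3525 genes (20%) differed, 14.2% of all genes higher and 5.87% lower. The median difference over all genes was 0.08 on the log2 scale. The balance of directions depended on the scaling, since centring each tumour on its median gave 284 higher and 247 lower genes, or 53.5% higher. In 153 genes (0.87%) all 10 CRPC tumours lay above the PRE-CX range, and in 94 genes (0.534%) all 10 lay below it.

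Castration had changed 645 genes at the PSA nadir (3.67% of those tested), 420 higher (2.39%) and 225 lower (1.28%) in POST-CX than in PRE-CX, and 26.3% of genes differed at any size, 20.6% higher and 5.62% lower. Most of these were also called at relapse: 374 (58.0% of them, 2.13% of all genes tested) stayed changed in the same direction, 235 of them raised and 139 lowered. A gene was counted as restored when CRPC differed from POST-CX in the opposite direction at an adjusted p under 0.05 and the 95% interval of CRPC minus PRE-CX lay within -1 to 1, and 1 gene, FAM13A, met this (0.00568% of those tested). The remaining 270 genes, 184 raised and 86 lowered by castration, were neither called at relapse nor bounded to the intact level with a tested return, and 153 of them still differed from PRE-CX at an adjusted p under 0.05. By the interval alone, a rule added after the data were seen, 44 castration-changed genes were bounded to the intact level in CRPC, 34 raised and 10 lowered, against 86.1% of all genes tested. The bound of -1 to 1 is on log2(TPM + 1), so for low genes the ratio of TPM can be larger. These comparisons share the PRE-CX tumours, so the counts describe the genes and are no test of a link between the stages.

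**Figure D1:**
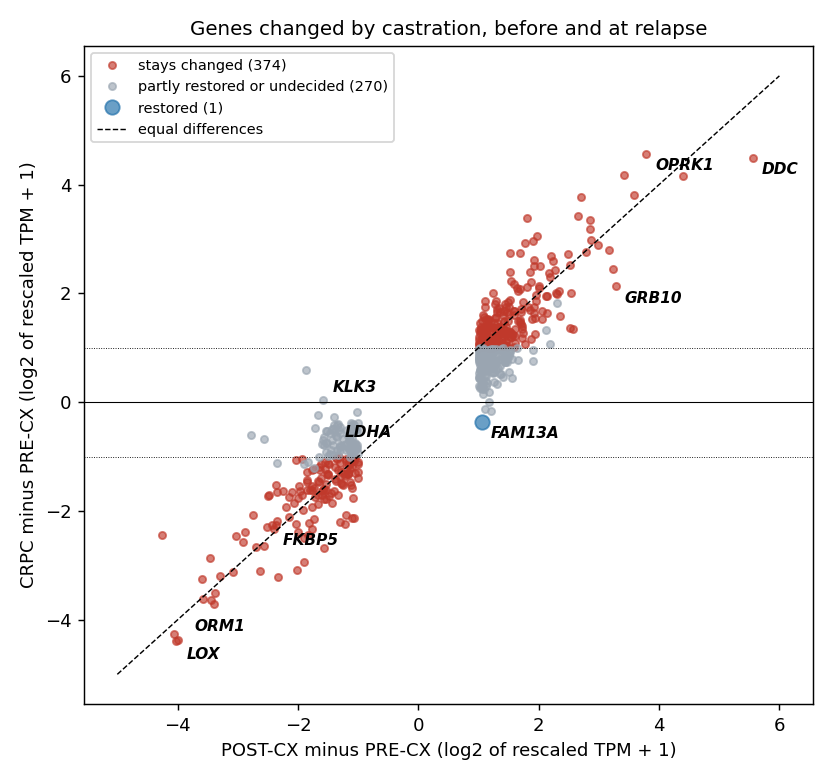
Each point is 1 of the 645 castration-changed genes, with its log2 difference at the PSA nadir (POST-CX minus PRE-CX) on the x axis and at relapse (CRPC minus PRE-CX) on the y axis, coloured by class. Genes on the dashed line differed equally at both stages, dotted lines mark differences of -1 and 1, and KLK3 and FAM13A lie near 0 on the y axis while ORM1, LOX, OPRK1 and DDC lie near the dashed line or beyond 4 in either direction.

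Direct testing of CRPC against POST-CX gave few calls. It called 3 genes (0.0171%), 1 higher (0.00568%) and 2 lower (0.0114%) in CRPC. At any size 11 genes (0.0625%) had an adjusted p under 0.05, 1 higher (0.00568%) and 10 lower (0.0568%), while 2259 had an unadjusted p under 0.05. The 3 genes were FAM13A, LINC00844 and BCAP31P1, of which LINC00844 was named after its values were seen. The number of calls here depended on the samples and on the fit. It was 15 without POST-CX tumour 91, 21 in a fit of the PRE-CX, POST-CX and CRPC tumours only, and 81 with limma array weights, which give each tumour a quality weight, with 4, 16 and 34 restored genes in turn.

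Of 3 kallikreins, KLK3 and KLK4 lay largely within the intact range in CRPC and KLK2 lay lower. KLK3 (chromosome 19, 50854915 to 50860764), which encodes PSA, ranged from 2129 through a median of 4679 to 6770 TPM in PRE-CX, from 604 through 1529 to 3203 TPM in POST-CX, and from 2825 through 4690 to 6828 TPM in CRPC. Of the CRPC tumours 9 of 10 lay within the PRE-CX range and 9 of 10 above the highest POST-CX tumour. Its log2 difference from PRE-CX was -1.58 in POST-CX (SE 0.52, limma adjusted p 0.0201) and 0.05 in CRPC (SE 0.49, limma adjusted p 0.957), with a 95% interval of -0.93 to 1.03. The rise of 1.63 from POST-CX to CRPC did not pass over all genes (SE 0.51, limma adjusted p 0.147). It passed in the fit of 3 groups without ENZS and ENZR (limma adjusted p 0.00289) and with array weights (limma adjusted p 0.00121). KLK3 counted as restored in these 2 of the alternative fits. Serum PSA, the product of this gene, was itself a harvest criterion of POST-CX and CRPC, so the label and the KLK3 level are not independent.

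KLK4 (chromosome 19, 50906351 to 50911395), a kallikrein protease with its main expression in prostate, was at 263, 365 and 644 TPM in PRE-CX (lowest, median and highest), at 179, 280 and 374 TPM in POST-CX and at 395, 469 and 642 TPM in CRPC. All 10 CRPC tumours were within the PRE-CX range and above the highest POST-CX tumour, but neither the difference from PRE-CX of 0.36 (limma adjusted p 0.338) nor that from POST-CX of 0.90 (limma adjusted p 0.132) passed. KLK2 (chromosome 19, 50873439 to 50880567), whose protease activates pro-PSA, sat between: medians were 465 TPM in PRE-CX, 88.7 TPM in POST-CX and 230 TPM in CRPC, and 7 of 10 CRPC tumours fell within the PRE-CX range of 190 to 1307 TPM. Its difference of -1.12 in CRPC had an interval of -2.20 to -0.04 and did not pass (SE 0.54, limma adjusted p 0.135), although it did in the 3-group fit (limma adjusted p 0.0144).

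Other androgen-induced genes stayed low. FKBP5 (chromosome 6, 35573590 to 35728583), a co-chaperone of steroid receptors, was at 91.8, 152 and 423 TPM in PRE-CX (lowest, median and highest), at 14.1, 34.5 and 36.7 TPM in POST-CX and at 19.4, 29.9 and 70.6 TPM in CRPC. All 10 CRPC tumours lay below the PRE-CX range, and the log2 difference of -2.32 at relapse (SE 0.31, limma adjusted p 2.19e-07) was close in size to that of -2.40 at the nadir (limma adjusted p 4.80e-07). The CRPC minus POST-CX difference of FKBP5 was 0.08 with an interval of -0.57 to 0.73. SLC45A3 (chromosome 1, 205657851 to 205680509), a solute carrier known as prostein, ranged from 121 to 268 TPM in PRE-CX and from 10.7 to 63.3 TPM in CRPC, with no overlap and a difference of -2.39 (SE 0.43, limma adjusted p 5.39e-05). STEAP4 (chromosome 7, 88270892 to 88306894), a metalloreductase, had medians of 13.9 TPM in PRE-CX, 0.401 TPM in POST-CX and 0.746 TPM in CRPC, again without overlap, and differed by -2.86 at relapse (SE 0.33, limma adjusted p 3.22e-09).

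Weaker but called were TMPRSS2 (chromosome 21, 41464305 to 41508158), a membrane serine protease, and PMEPA1, a negative regulator of TGF-beta signalling. TMPRSS2 fell from 541 ± 197 TPM in PRE-CX (SD, n = 9) to 259 ± 119 TPM in CRPC (SD, n = 10), which the fit gave as -1.14 (SE 0.30, limma adjusted p 0.00479). Inside the PRE-CX range lay 4 of 10 CRPC tumours. With TPM as deposited this call of TMPRSS2 was lost. PMEPA1 fell from 132 ± 30.9 to 59.2 ± 25.9 TPM, a difference of -1.24 (SE 0.28, limma adjusted p 0.00111), and 9 of 10 CRPC tumours were below the PRE-CX range. The median of TMPRSS2 at relapse, 248 TPM, was above that of 179 TPM at the nadir, while the change between these stages did not pass (0.48, limma adjusted p 0.531).

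The steepest losses among androgen-induced genes were those of ORM1 and HPGD. ORM1 (chromosome 9, 114323098 to 114326479), which encodes the plasma protein orosomucoid, had 4.32, 35.8 and 74.2 TPM in PRE-CX (lowest, median and highest) and 0, 0.365 and 1.55 TPM in CRPC. No CRPC tumour reached the lowest PRE-CX tumour, and the difference was -4.36 (SE 0.24, limma adjusted p 7.50e-21). RSEM shares reads between ORM1 and its near-identical neighbour ORM2, and ORM2 fell too, by 3.20 on the log2 scale (limma adjusted p 1.07e-21), so the split between both copies is uncertain. HPGD (chromosome 4, 174490175 to 174522893), the enzyme that inactivates prostaglandins, went from a median of 23.0 TPM to 0.680 TPM (log2 difference -3.71, SE 0.26, limma adjusted p 2.07e-16). MAF, a basic leucine zipper transcription factor, went from a median of 21.7 TPM to 3.70 TPM (log2 difference -2.39, SE 0.31, limma adjusted p 7.99e-08).

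**Figure D2:**
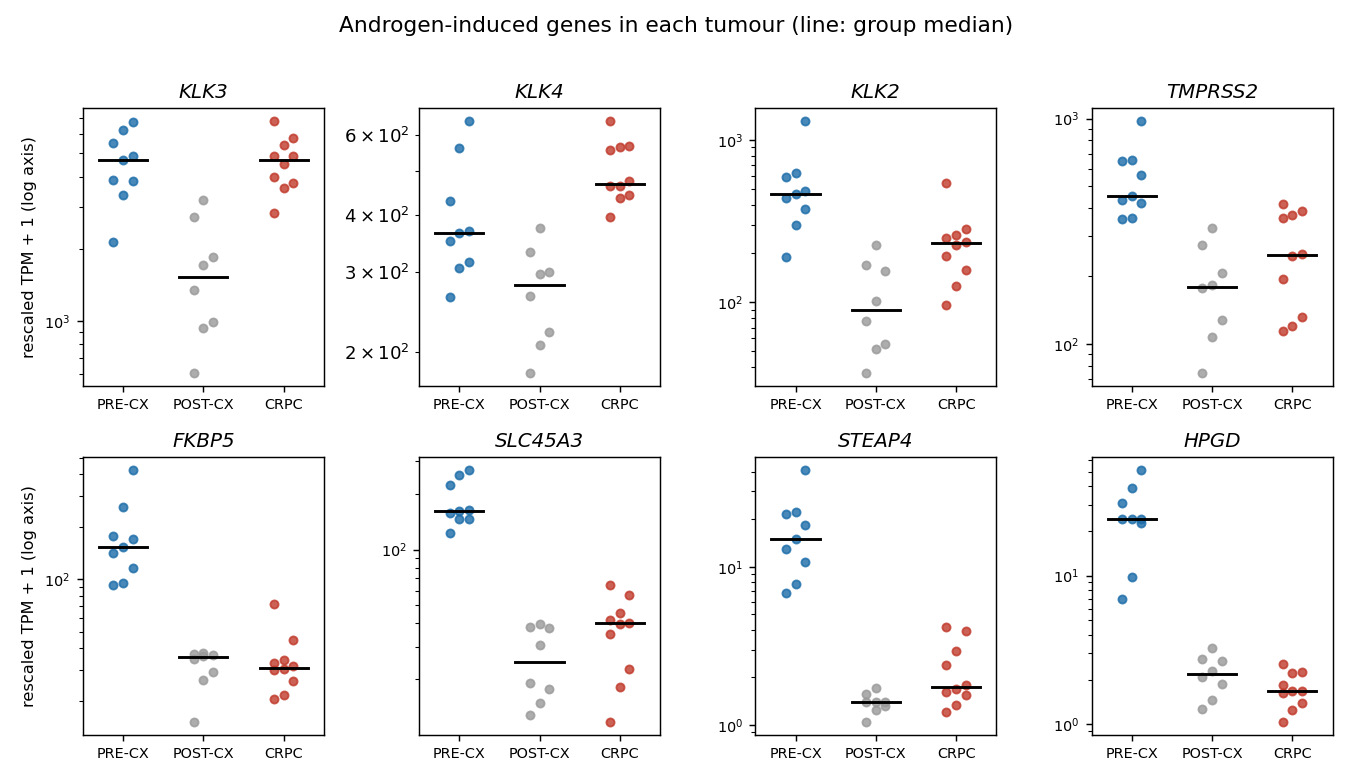
Rescaled TPM + 1 on a log axis in each PRE-CX (n = 9), POST-CX (n = 8) and CRPC (n = 10) tumour for 8 androgen-induced genes, with 1 point per tumour and a line at the group median. CRPC points of KLK3 and KLK4 lie almost wholly within the PRE-CX range, those of KLK2 and TMPRSS2 overlap it in part, and those of FKBP5, SLC45A3, STEAP4 and HPGD lie below it.

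Over the whole list of 32 androgen-induced genes, 20 were called lower in POST-CX (1.28% of all genes were) and 13 were called lower in CRPC (1.16% of all genes were). STEAP2 was called higher in POST-CX, and none was called higher in CRPC. The median difference was -1.30 at the nadir and -0.74 at relapse, beside 0.16 and 0.08 over all genes. All 13 genes low at relapse were in the stays-changed class, among them the calcium channel gene TRPM8 (-1.72, limma adjusted p 0.000935), the nicotinic receptor subunit gene CHRNA2 (-2.08) and the glycine methyltransferase gene GNMT (-1.62). Values at the nadir depend on the scaling more than those at relapse: as deposited, the median over all genes moved from 0.16 to -0.05 in POST-CX minus PRE-CX and from 0.08 to 0.11 in CRPC minus PRE-CX. The androgen-induced list kept a negative median at relapse as deposited (-0.70) and centred (-0.83).

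Some genes that androgens repress were higher in CRPC than in PRE-CX. FOLH1 (chromosome 11, 49145092 to 49208602), which encodes prostate-specific membrane antigen, went from a median of 666 TPM to 1263 TPM, above the PRE-CX range in 9 of 10 CRPC tumours. Its difference of 0.99 (SE 0.20, limma adjusted p 0.000242) lay just under the size threshold, and it was called as deposited at 1.03.

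The glucuronidation enzymes UGT2B15 and UGT2B17, which inactivate androgens, spread widely and overlapped between groups. UGT2B17 ranged from 1.11 to 87.7 TPM in PRE-CX and from 5.82 to 117 TPM in CRPC, with medians of 4.14 and 31.5 TPM, and did not pass at relapse (1.82, SE 0.73, limma adjusted p 0.0693). UGT2B15 had medians of 2.73 and 12.7 TPM and did not pass either (1.33, SE 0.63, limma adjusted p 0.132). Their close relative UGT2B28 was lower in CRPC (-1.47, SE 0.38, limma adjusted p 0.00345), and reads shared within this gene family make the values of each member uncertain. Of the 9 androgen-repressed genes tested, 7 were called higher at the nadir (2.39% of all genes were). At relapse 3 were called higher, OPRK1 and DDC among them (2.18% of all genes were). UGT2B28 was called lower at both stages, and the median difference of the list was 2.00 and 1.33.

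OPRK1, DDC, AOC1 and ATP1B1 had the largest rises at relapse among the called genes. OPRK1 (chromosome 8, 53225724 to 53251637), the kappa opioid receptor, was at 0.556, 0.936 and 4.88 TPM in PRE-CX (lowest, median and highest) and at 11.5, 61.2 and 129 TPM in CRPC. The groups did not overlap, and the difference was 4.57 (SE 0.46, limma adjusted p 1.23e-10). DDC (chromosome 7, 50458442 to 50565405), the decarboxylase that makes dopamine and serotonin, rose from a median of 3.88 TPM to 208 TPM (4.49, SE 0.54, limma adjusted p 1.49e-08), and 9 of 10 CRPC tumours lay above the PRE-CX maximum of 60.3 TPM. Its POST-CX median was 315 TPM, and the change of -1.08 from POST-CX to CRPC did not pass (limma adjusted p 0.418). AOC1 (chromosome 7, 150852120 to 150861504), the diamine oxidase that degrades histamine and putrescine, rose from 0.103 to 1.42 TPM in PRE-CX to 2.29 to 99.8 TPM in CRPC (4.18, SE 0.66, limma adjusted p 6.71e-06).

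ATP1B1 (chromosome 1, 169106690 to 169132719), the beta subunit of the sodium pump, was at 2.71, 17.9 and 83.6 TPM in PRE-CX (lowest, median and highest) and at 251, 367 and 842 TPM in CRPC, without overlap (4.16, SE 0.46, limma adjusted p 1.86e-09). The scavenger receptor gene COLEC12 (chromosome 18, 316737 to 500701) went from 3.82 ± 1.85 to 49.3 ± 15.1 TPM (3.43, SE 0.28, limma adjusted p 3.71e-14). The protocadherin gene PCDH11Y went from a mean of 25.8 TPM to 290 TPM (3.80, SE 0.56, limma adjusted p 1.36e-06), and its close homologue on chromosome X, PCDH11X, from 0.130 to 20.9 TPM (3.77, SE 0.64, limma adjusted p 1.87e-05). The relaxin genes RLN1 (3.39, SE 0.56, limma adjusted p 1.46e-05) and RLN2 (3.06, limma adjusted p 8.81e-06), which encode peptide hormones, rose together. Within the pairs PCDH11X and PCDH11Y, and RLN1 and RLN2, the assignment of reads to either copy is uncertain.

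LOX, ORM1 and ANGPT2 had the largest falls at relapse among the called genes. LOX (chromosome 5, 122063195 to 122078259), which crosslinks collagen and elastin, was at 9.66, 33.3 and 64.1 TPM in PRE-CX (lowest, median and highest) and at 0.0845, 0.320 and 3.88 TPM in CRPC (-4.39, SE 0.25, limma adjusted p 3.53e-20). ANGPT2 (chromosome 8, 6499632 to 6563245), a ligand of the endothelial receptor TIE2, was at 81.0, 103 and 297 TPM in PRE-CX and at 1.57, 4.70 and 27.1 TPM in CRPC (-4.25, SE 0.55, limma adjusted p 9.65e-08). For both genes every CRPC tumour lay below every PRE-CX tumour, and the POST-CX medians of 0.711 TPM and 5.24 TPM were already as low.

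ST6GALNAC1, a sialyltransferase of O-glycans, fell from 43.6 ± 13.0 to 2.54 ± 0.847 TPM (-3.64, SE 0.22, limma adjusted p 5.19e-19). The long non-coding RNA PSLNR fell from 51.3 ± 22.1 to 3.59 ± 2.82 TPM (-3.61, SE 0.49, limma adjusted p 2.24e-07), the kinase anchoring protein gene AKAP12 from a median of 13.0 TPM to 0.550 TPM (-3.25, SE 0.32, limma adjusted p 4.26e-11), and the amino acid transporter gene SLC43A1 from a median of 37.9 TPM to 2.67 TPM (-3.22, SE 0.27, limma adjusted p 2.07e-13). None of these overlapped between CRPC and PRE-CX. Among called genes with an approved symbol and a mean of 5 TPM or more in the higher group, the 8 with the strongest rise and the 8 with the strongest fall were all in the stays-changed class.

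**Figure D3:**
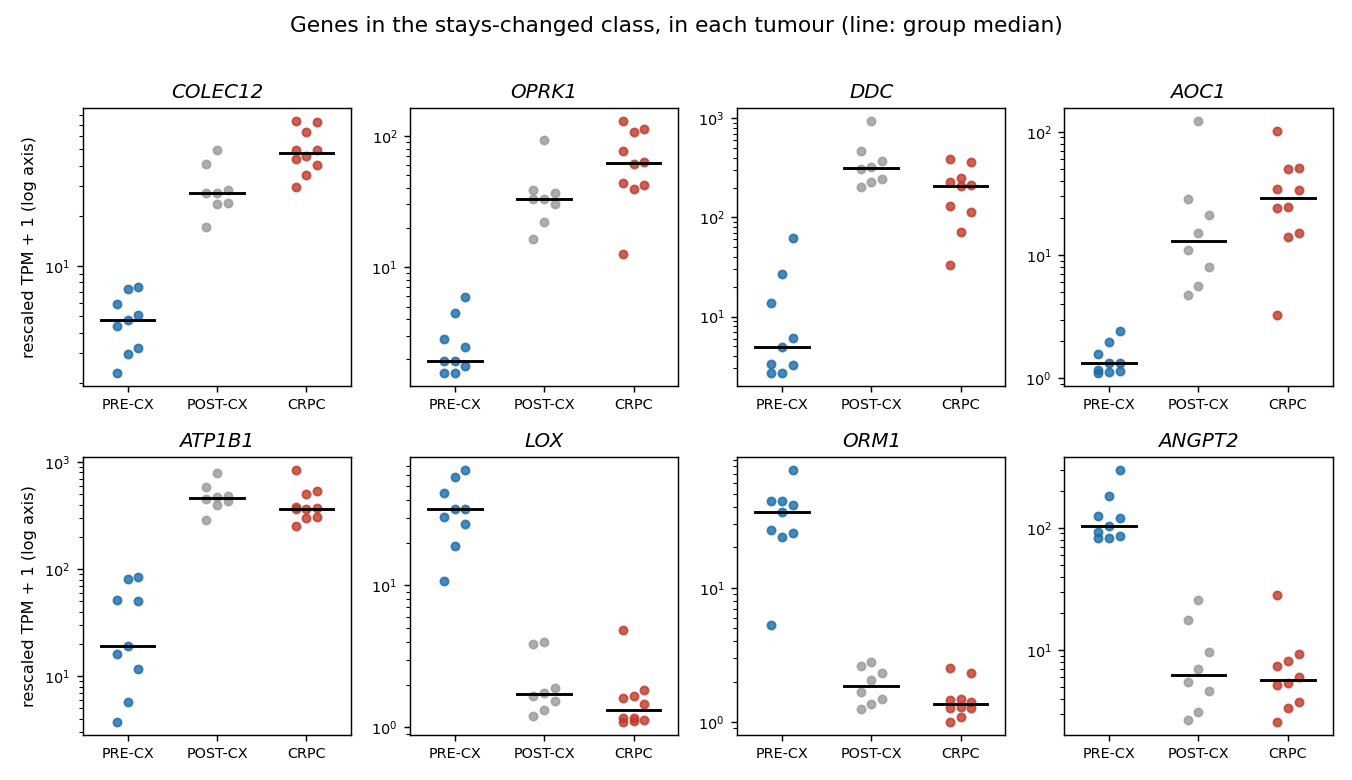
Rescaled TPM + 1 on a log axis in each PRE-CX (n = 9), POST-CX (n = 8) and CRPC (n = 10) tumour for 8 genes of the stays-changed class, with 1 point per tumour and a line at the group median. COLEC12, OPRK1, AOC1 and ATP1B1 lie above the PRE-CX range in all 10 CRPC tumours, DDC in 9 of 10, and LOX, ORM1 and ANGPT2 lie below it in all 10.

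Genes that had moved back in CRPC were few by the strict rule. FAM13A (chromosome 4, 88725960 to 89057185) was at 28.6, 59.6 and 220 TPM in PRE-CX (lowest, median and highest), at 77.3, 144 and 189 TPM in POST-CX and at 29.3, 55.2 and 69.4 TPM in CRPC. All 10 CRPC tumours lay below the lowest POST-CX tumour and within the PRE-CX range. It rose by 1.05 at the nadir (SE 0.27, limma adjusted p 0.00314) and differed from POST-CX by -1.41 at relapse (SE 0.26, limma adjusted p 0.0220), with an interval of -0.87 to 0.15 against PRE-CX. The 8 POST-CX values were all within the PRE-CX range, which holds 1 high tumour at 220 TPM. It counted as restored in 7 of 9 alternative fits, not as deposited or centred, and no gene did in 8 of 27 fits that left out 1 tumour. The call against POST-CX was lost as deposited (limma adjusted p 0.420) and was also lost without CRPC 35 or 47 or POST-CX 44, 66, 86, 92 or 99, at a limma adjusted p of 0.0673 or less, and without PRE-CX 112 the gene was no longer restored although that call was kept.

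LINC00844 (chromosome 10, 58999518 to 59001617), a long non-coding RNA, was the only gene called higher in CRPC than in POST-CX. It was at 3.56, 10.4 and 27.6 TPM in PRE-CX (lowest, median and highest), at 1.45, 2.25 and 4.37 TPM in POST-CX and at 7.59, 16.3 and 47.6 TPM in CRPC. Every CRPC tumour was above every POST-CX tumour, and the difference of 2.45 just passed (SE 0.54, limma adjusted p 0.0486). Against PRE-CX it differed by 0.59 with an interval of -0.46 to 1.63, too wide to count as restored. The call was kept in 5 of 9 alternative fits and in 11 of 27 fits that left out 1 tumour.

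The 10 lowered genes bounded to the intact level held 3 genes of glycolysis and hypoxia, named after their values were seen. ENO1, the glycolytic enolase, had medians of 1177 TPM in PRE-CX, 613 TPM in POST-CX and 843 TPM in CRPC. BNIP3, a mitochondrial protein induced by low oxygen, had medians of 253, 106 and 216 TPM, and PFKP, a phosphofructokinase, medians of 60.7, 30.0 and 43.9 TPM. Of the 34 raised genes, GABBR1, a subunit of the GABA type B receptor, had medians of 4.34, 11.4 and 3.76 TPM, and C1QTNF6 had medians of 2.07, 6.69 and 2.73 TPM with a CRPC minus POST-CX difference of -0.97 (limma adjusted p 0.0541). GABBR1 and C1QTNF6 counted as restored in 3 and 4 of the alternative fits.

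Glycolysis and hypoxia genes were lower at the nadir and closer to the intact level at relapse. Of the 32 genes on this list, 13 were called lower in POST-CX (1.28% of all genes) and 2 in CRPC (1.16% of all genes), and the median difference was -0.90 at the nadir and -0.39 at relapse. Between POST-CX and CRPC none passed an adjusted p of 0.05 by limma, with 30 of 32 estimates above 0, so the return of single genes was not shown. LDHA (chromosome 11, 18394563 to 18408425), lactate dehydrogenase A, was at 939, 1557 and 3315 TPM in PRE-CX (lowest, median and highest), at 220, 668 and 941 TPM in POST-CX and at 547, 1053 and 2253 TPM in CRPC, and 7 of 10 CRPC tumours lay within the PRE-CX range. Its difference at relapse was -0.53 with an interval of -1.33 to 0.27 (limma adjusted p 0.367). VEGFA, the main vascular growth factor, had medians of 141, 79.4 and 105 TPM and a difference at relapse of -0.50 with an interval of -1.06 to 0.07. The 2 called genes were ERO1A, an oxidase of the endoplasmic reticulum (-1.07, SE 0.37, limma adjusted p 0.0341), and NDRG1, a stress-induced gene that androgens also induce (-1.04, SE 0.34, limma adjusted p 0.0214), both with CRPC tumours inside the PRE-CX range and both lost as deposited. POST-CX tumours were taken 1 week after surgery and PRE-CX tumours at 1000 mm3. Tumour size and castration therefore cannot be told apart for these genes or for any other gene in that comparison.

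Some genes stood between both states, GRB10 and GDF15 while still called and ERBB2 without a call. GRB10 (chromosome 7, 50590068 to 50793453), an adaptor that binds insulin receptors, was at 16.4, 22.0 and 46.2 TPM in PRE-CX (lowest, median and highest), at 131, 259 and 395 TPM in POST-CX and at 24.02, 126 and 336 TPM in CRPC. It was 2.13 higher than intact at relapse (SE 0.36, limma adjusted p 2.28e-05), and its decline of 1.15 from POST-CX did not pass (limma adjusted p 0.169). GDF15 (chromosome 19, 18386158 to 18389176), a secreted stress factor of the TGF-beta family, had medians of 945, 207 and 323 TPM, and 7 of 10 CRPC tumours lay below the PRE-CX range (-1.52, SE 0.35, limma adjusted p 0.00133). ERBB2, the HER2 receptor tyrosine kinase, had medians of 74.2, 153 and 105 TPM and differed by 0.59 at relapse (SE 0.20, limma adjusted p 0.0302), under the size threshold. Its interval of 0.19 to 0.99 lay within -1 to 1, so it was also among the raised genes bounded to the intact level.

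BCAP31P1 (chromosome 16, 33987962 to 33991551) was the only gene called at relapse against both earlier stages and not at the nadir (0.00568% of those tested). BCAP31P1 is a pseudogene of BCAP31 and was at 2.43, 14.9 and 55.0 TPM in PRE-CX (lowest, median and highest), at 1.54, 13.5 and 38.5 TPM in POST-CX and at 0.288, 1.74 and 14.05 TPM in CRPC. BCAP31P1 differed from PRE-CX by -2.29 (SE 0.43, limma adjusted p 0.000100) and from POST-CX by -2.17 (SE 0.44, limma adjusted p 0.0340), and the groups overlapped. The call against POST-CX was kept in 5 of 9 alternative fits and in 18 of 27 fits that left out 1 tumour. It was lost without CRPC 35, 47, 102 or 107 or POST-CX 18, 44, 66, 86 or 92, at a limma adjusted p of 0.107 or less. The parent gene BCAP31 differed by -0.01 between CRPC and PRE-CX (limma adjusted p 0.967), and reads can be shared between parent and copy. With BCAP31P1 included, 213 genes were called in CRPC against PRE-CX without a call at the nadir, 148 higher and 65 lower. In 211 of them the nadir estimate had the same sign, with a limma adjusted p under 0.05 in 86. Over all genes 26.3% had such an adjusted p at the nadir, in either direction. Both comparisons use the same PRE-CX tumours and the genes were picked on a large difference from them, so agreement in sign is partly built in. SEMA3C (chromosome 7, 80742538 to 80922389), a secreted guidance factor, was among the 213 genes. Its medians were 8.72, 12.5 and 32.3 TPM, and it was 2.24 higher at relapse (SE 0.60, limma adjusted p 0.00513). Of the CRPC tumours 8 of 10 lay above the PRE-CX range.

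**Figure D4:**
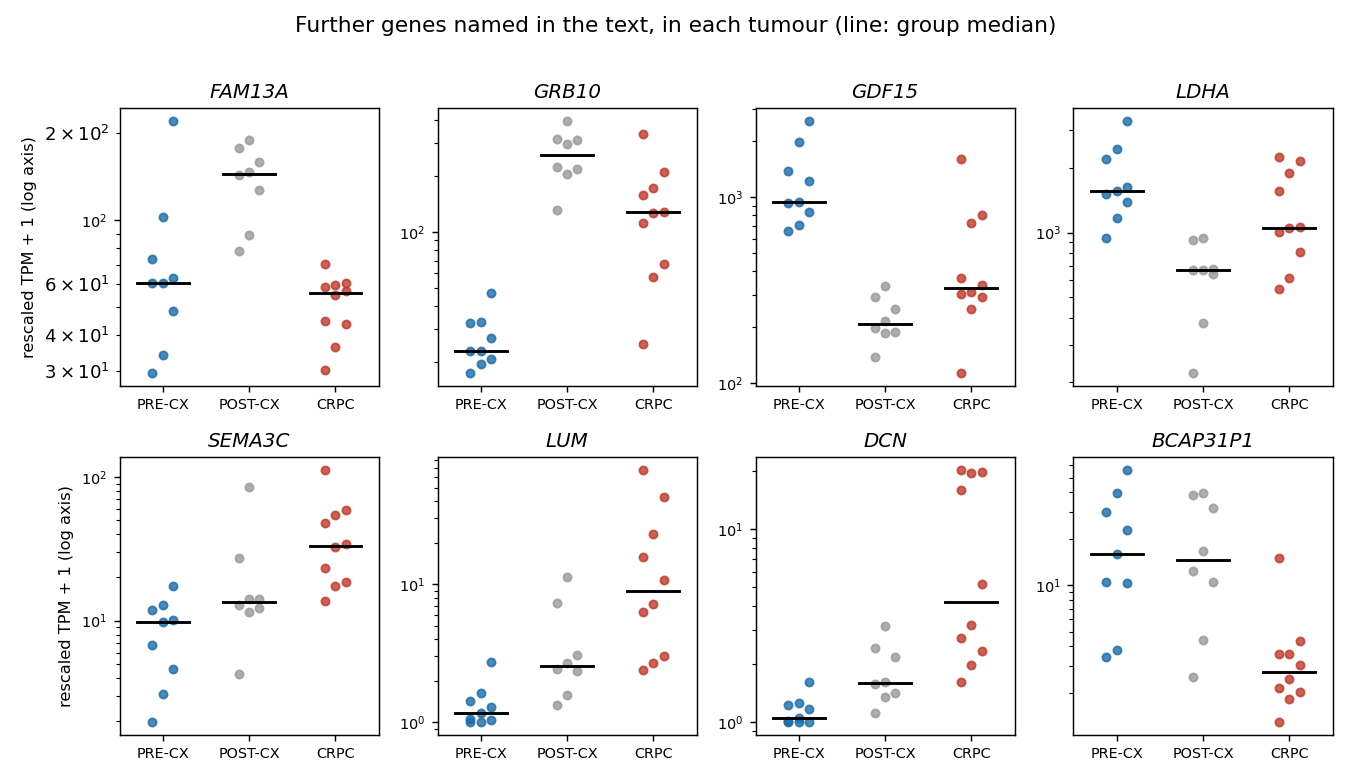
Rescaled TPM + 1 on a log axis in each PRE-CX (n = 9), POST-CX (n = 8) and CRPC (n = 10) tumour for 8 further genes, with 1 point per tumour and a line at the group median. CRPC points of FAM13A lie below all POST-CX points, the CRPC medians of GRB10, GDF15 and LDHA lie between those of both earlier groups, and those of SEMA3C, LUM and DCN reach above and those of BCAP31P1 below the PRE-CX range.

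Proliferation genes were not called at relapse, while every estimate was below 0. Of 35 DNA replication genes and 34 mitosis genes, 0 were called in CRPC against PRE-CX by limma (3.34% of all genes were). At an adjusted p under 0.05 at any size, 7 replication genes and 0 mitosis genes were lower (5.87% of all genes were). The median differences of the lists were -0.44 and -0.58. All 35 and all 34 estimates were below 0, against 6957 of 17593 over all genes, and no list was tested as a set. MKI67, which encodes the Ki-67 antigen of cycling cells, was at 5.04, 13.7 and 25.8 TPM in PRE-CX (lowest, median and highest) and at 3.21, 9.37 and 13.3 TPM in CRPC, with all 10 CRPC tumours under the PRE-CX median and 9 within its range (-0.57, interval -1.19 to 0.04, limma adjusted p 0.186). TOP2A, topoisomerase II alpha, differed by -0.47 (interval -1.34 to 0.40) and PCNA, the replication clamp, by -0.35 (interval -0.75 to 0.04). These intervals include both no change and a lower level, and the estimates of both lists kept a negative median as deposited (-0.40 and -0.54) and centred (-0.53 and -0.67).

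The calls among lipid synthesis genes were both in the fatty acid list. Of 23 cholesterol synthesis genes none was called at relapse by limma (3.34% of all genes were). Of these, 4 were lower at an adjusted p under 0.05 at any size (5.87% of all genes were), and the median was -0.02. Of 19 fatty acid genes 2 were called lower (1.16% of all genes were). They were ACSL3, an acyl-CoA synthetase (-1.60, SE 0.17, limma adjusted p 6.03e-10), and ELOVL7, an elongase of very long fatty acids (-2.26, SE 0.31, limma adjusted p 2.32e-07). ACSL3 was at 161, 364 and 592 TPM in PRE-CX (lowest, median and highest) and at 85.8, 110 and 146 TPM in CRPC, without overlap. The median over the fatty acid list was 0.03.

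Other lists tied to steroid signalling or lineage are set beside the 3.34% of all genes called. Of 13 androgen synthesis and reduction genes none was called by limma. At an adjusted p under 0.05 at any size, 1 was higher (14.2% of all genes were) and 2 were lower (5.87% of all genes were). With 3.34% called over all genes, 0 calls in a list this short says little about the list. NR3C1, the glucocorticoid receptor, was near the detection floor, with medians of 0.418 TPM in PRE-CX and 0.626 TPM in CRPC (0.14, interval -0.49 to 0.77). Only 3 of 20 neuroendocrine genes passed the expression filter and none was called. NRG3, a ligand of ERBB4, rose from a median of 0.322 TPM to 7.92 TPM without overlap (2.51, SE 0.32, limma adjusted p 4.14e-08), the sole call among 10 ERBB receptor and ligand genes tested. SESN1, a p53 target that restrains mTORC1, rose from a median of 51.4 TPM to 186 TPM (1.68, SE 0.30, limma adjusted p 4.77e-05), whereas p53 targets as a list had 1 call in each direction, the other being GDF15.

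Immune and protein turnover lists are set beside 2.18% of all genes called higher and 1.16% called lower. Among 24 interferon-stimulated genes the GTPase gene MX1 was called higher (1.03, SE 0.21, limma adjusted p 0.000252) and the ISG15 ligase gene HERC5 lower (-1.06, SE 0.23, limma adjusted p 0.000555), and the list median was 0.20. MX1 was not called once tumours were centred (0.94). None of 15 MHC class I genes, 31 proteasome genes and 78 ribosomal protein genes was called by limma (3.34% of all genes were), with medians of 0.20, -0.06 and -0.04. At an adjusted p under 0.05 at any size, 1 MHC class I gene was higher (14.2% of all genes were). At that threshold 2 proteasome genes were lower (5.87% of all genes were) and 0 ribosomal protein genes differed (20% of all genes did). The sign of the ribosomal protein median depended on the scaling.

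In the remaining lists the calls were those of the genes already named, beside 3.34% of all genes called. Like the other lists, these were chosen with earlier results of these data known. Their counts beside the share of all genes are therefore a description and not a test of the list. Of 14 genes of collagen and elastin modification LOX was called, of 11 angiogenic factors ANGPT2 was called lower and 1 other gene, SEMA3C, higher, and of 5 genes of monoamine metabolism and opioid receptors OPRK1 and DDC were called. AOC1 was the single call among 15 polyamine genes, where 5 were lower at an adjusted p under 0.05 at any size (5.87% of all genes were), and ATP1B1 the single call among 5 sodium pump genes. None of 23 secretory folding genes and 20 ATF4 stress genes was called by limma. At any size 1 and 2 were higher (14.2% of all genes were) and 1 and 2 lower (5.87% of all genes were). Of the 3 basal markers and the 1 blood cell marker that passed the filter none was called, and KRT14 was higher under the size threshold (0.92, SE 0.34, limma adjusted p 0.0458).

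**Figure D5:**
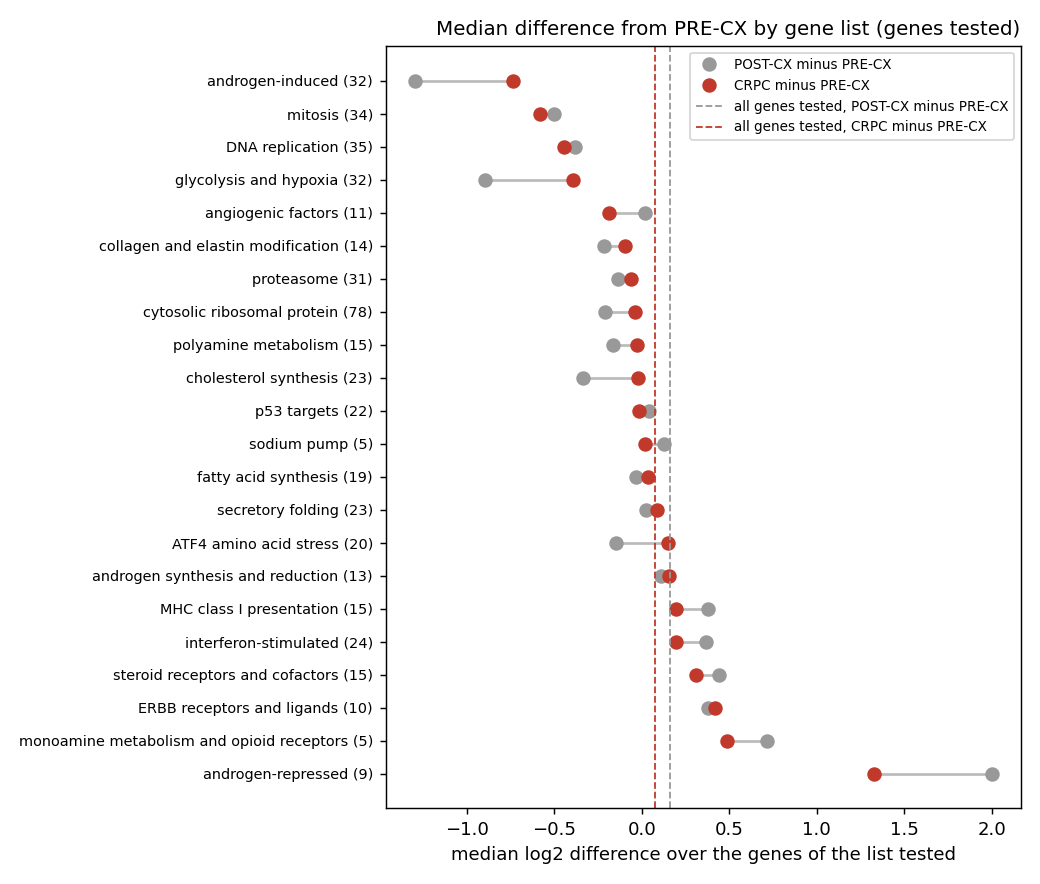
Median log2 difference from PRE-CX over the genes tested of each list, at the PSA nadir (POST-CX, grey) and at relapse (CRPC, red), with the number of genes in brackets and dashed lines at the medians over all 17593 genes. The androgen-induced list moved from -1.30 to -0.74 and glycolysis and hypoxia from -0.90 to -0.39, while DNA replication and mitosis lay at -0.38 and -0.50 in POST-CX and at -0.44 and -0.58 in CRPC.

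Markers of other cell types moved between the groups too. Of 11 fibroblast and muscle markers 6 passed the filter. The summed level of all 11 ranged from 15.9 to 27.1 TPM in PRE-CX and from 24.1 to 109 TPM in CRPC. LUM, a matrix proteoglycan, rose from a median of 0.174 TPM to 7.98 TPM (2.94, SE 0.65, limma adjusted p 0.000844), DCN, another one, from 0.0534 TPM to 3.20 TPM (2.35, SE 0.53, limma adjusted p 0.00104) and COL3A1, a fibrillar collagen, from 0.841 TPM to 5.88 TPM (1.88, SE 0.47, limma adjusted p 0.00269). COL1A1, the major collagen of fibroblasts, was lower at -0.72 (limma adjusted p 0.0352), and COL1A2 and PDGFRA had a median of 0 in PRE-CX and CRPC. VWF, the only 1 of 8 endothelial markers to pass the filter, fell from a median of 4.90 TPM to 1.07 TPM (-1.28, SE 0.25, limma adjusted p 0.000153). The host's cells are of mouse origin and mouse genes were left out by the authors, and the part of residual host reads in these values was not tested.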

How the data were processed

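RNA from 54 LNCaP xenograft tumours was sequenced by the authors as stranded polyA libraries in paired reads. The authors trimmed reads with Trim Galore (0.6.5), checked them with FastQC (0.11.9), aligned them with STAR (2.7.2b) to a joint human and mouse genome (GRCh38 and GRCm38), estimated abundances with RSEM (1.3.3) and left out mouse genes. The deposited values are TPM per human gene symbol. They hold no read depth, so no counting error can be given and no count test was run. Because the mouse share had been removed, each tumour was rescaled to 1000000.

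Of 60642 genes, 17593 with 1 TPM or more in at least 8 tumours were tested on log2(TPM + 1). This scale understates changes of low genes. A limma model (3.58.1, R 4.3.3) with 5 groups was fitted to all 54 tumours with an intensity-trended variance prior, and p-values were adjusted by Benjamini-Hochberg over all genes in each comparison. Tumours are single mice of 1 cell line. Figures were drawn with matplotlib (3.10.9). Promoter windows and positions come from RefSeq on GRCh38.p14, and the paper gives GRCh38 without a patch level for the alignment.

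Named genes are a panel of 22, the 8 strongest rises and the 8 strongest falls among genes called in CRPC against PRE-CX, up to 6 in each direction at the nadir among restored genes and among genes that stay changed, up to 5 in each direction among genes changed at relapse, and up to 4 called members of each of 28 lists. Apart from the panel and the lists, the mean of the higher group had to be 5 TPM or more and the symbol an approved name. They come to 56 genes. A further 12, and the list members, markers and genes next to a threshold that are given beside counts, were chosen after their values were seen. Some of these genes are not reported here. Members and lists were chosen with earlier results of these data known. Alternatives were TPM as deposited, centring, a pseudocount of 0.1, no filter, a filter on 18 tumours, a fit of 3 groups, leaving out the 4 tumours of lowest human TPM, array weights, a robust prior and each tumour left out in turn.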

Additional observations from a re-analysis of the deposited data

Results flagged for a closer look

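In 16 of 165 pairs of a named gene and a group, 1 tumour stood apart from the rest of its group by Dixon's test at the 95% level, which chance alone gives in about 1 in 20 pairs. POST-CX tumour 91, which had the lowest human TPM share of its group, was low in FKBP5 (14.1 TPM against 25.5 to 36.7 in the others), TOP2A (12.1 TPM against 27.7 to 41.2) and PCNA (87.1 TPM against 168 to 236). POST-CX tumour 99 was low in SESN1 at 97.5 TPM against 205 to 342 TPM.

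CRPC tumour 81 was flagged in 3 genes, each time nearer the intact level than the other CRPC tumours. It had 11.5 TPM of OPRK1 (38.4 to 129 in the others), 14.001 TPM of SLC43A1 (1.26 to 5.12) and 37.1 TPM of ELOVL7 (7.17 to 16.0). Tumour 81 was also the CRPC tumour nearest the PRE-CX median in genes that were not flagged, DDC and GRB10 among them. In other genes, such as LOX, it was not. CRPC tumour 43 stood apart in BCAP31P1 at 14.05 TPM against 0.288 to 3.32 TPM, and in the endothelial marker VWF at 4.16 TPM against 0.726 to 1.67 TPM. CRPC tumour 78 had 3.88 TPM of LOX against 0.0845 to 0.830 TPM.

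Among PRE-CX tumours, ORM1 was low in tumour 111 (4.32 TPM against 22.9 to 74.2) and SLC43A1 was high in tumour 112 (117 TPM against 22.1 to 50.2). NR3C1 was high in PRE-CX tumour 62 at 1.43 TPM, with 0.628 TPM the highest of the others. The matrix genes each had 1 high PRE-CX tumour, LUM in tumour 67 (1.73 TPM, others up to 0.628), DCN in tumour 4 (0.622 TPM, others up to 0.256) and COL3A1 in tumour 58 (3.10 TPM, others up to 1.24).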

How the results depend on the processing

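No paired analysis was possible because every mouse carried a single tumour and the groups share no mouse numbers. Over the named genes and 9 alternative fits, 486 differences between CRPC and PRE-CX kept their direction and side of the threshold, 9 came past it, 6 fell short of it and 1 turned. Of 56 named genes, 46 stayed on their side in every fit, those without 1 tumour included. The CRPC against PRE-CX count moved most with a pseudocount of 0.1, to 1275 genes (988 higher), with 1499 genes at the nadir, 862 that stayed changed, 635 undecided, 2 restored, 68 within the interval and 0 changed only at relapse.

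Calls between CRPC and POST-CX, main count 3, numbered 0 as deposited, 7 centred, 1 without a filter, 21 in the 3-group fit, 24 without the 4 tumours of lowest human TPM and 81 with array weights. Restored genes numbered 0, 3, 1, 16, 13 and 34 in the same order, and genes changed at relapse 0, 3, 0, 7, 9 and 32. Genes within the interval numbered 22 as deposited and 71 without the 4 tumours. The difference of KLK3 turned to -0.042 when centred, to -0.080 without PRE-CX tumour 4 and to -0.02 without CRPC tumour 89, all within its error. The cause was not tested for these changes.

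Leaving out 1 tumour at a time gave 522 to 693 genes for CRPC against PRE-CX (lowest without CRPC 36, highest without CRPC 81). For CRPC against POST-CX it gave 0 to 15 (highest without POST-CX 91). Genes that stayed changed numbered 330 to 409 and restored genes 0 to 5 (highest without POST-CX 48). Genes within the interval numbered 28 to 68 (lowest without CRPC 107, highest without POST-CX 48). Genes changed at relapse numbered 0 to 7, and the KLK3 difference was -0.080 to 0.129. TPM without depth limits what can be said of genes near 0.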
